A study of Caenorhabditis elegans with 8 samples.

Results

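Embryos lacking seip-1 were compared with young adults lacking seip-1 on 4 single-colour microarrays, 2 of knockout embryos and 2 of knockout young adults, taken from a series of 8 arrays. The series holds Caenorhabditis elegans of 2 genotypes, wild type (N2) and seip-1_knock_out, each sampled as embryos and as young adults with 2 arrays a group. Both knockout groups carry the same label of genotype, and the allele and the number of lines behind it are not given in the sources used here. The adults were cultures grown for 52 h after feeding began at the L1 stage, and the embryos were freed with hypochlorite from adults of that age, so an embryo sample pools embryos of several ages, which the labels do not give. Adults were collected whole, with their germ line, oocytes, sperm and any embryos inside them. The comparison asks which gene families separate the stages in animals without seipin. Of 20008 genes named on the array 16547 were tested, those with a probe that both embryo arrays or both adult arrays measured well above background.

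Seipin is a protein of the endoplasmic reticulum that acts where lipid droplets form, and the title of the series places the worm gene at the making of the eggshell. The worm embryo starts from RNA loaded by the mother, turns on its own genes in the early lineages, builds skin, muscle, gut and nerve cells, and then elongates inside a temporary matrix before it secretes its larval cuticle. The young adult has a permanent adult cuticle, a gut that makes yolk, stored sperm, and a germ line in which meiotic nuclei and growing oocytes lie in a row.

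The 4 knockout arrays were alike in brightness. The 75th percentile of the processed intensity was 2267 and 2064 on the embryo arrays and 2291 and 2745 on the adult arrays, and 75.5% and 71.9% against 69.3% and 69.1% of 43603 probes were well above background. Between the arrays of a stage, the log2 values of a gene differed with a standard deviation of 0.49 in the embryos and 0.62 in the adults. The probe of seip-1 (R01B10.6, chromosome V) read 5.19 and 6.72 intensity units in knockout embryos and 5.74 and 6.97 in knockout adults, at background on every knockout array, so the gene was not tested here, while it read 3292 and 3871 in wild-type embryos and 3120 and 2966 in wild-type adults. All embryo arrays lay on 1 slide and all adult arrays on another, so stage and slide cannot be told apart in any value that follows. The labels do not say that the arrays of a group came from separate cultures, and the p-values then measure only the spread between these samples. Each level below is a processed intensity from the array, given for array 1 and array 2 in that order. Each difference is the embryo mean minus the adult mean of log2 intensities scaled to the 75th percentile of the array, with n = 2 in each group, and ± is the standard error of the linear model. Intensities of different genes come from different probes and cannot be ranked against each other. In whole animals or pooled embryos, fewer cells of a type and less RNA per cell cannot be told apart.

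Most genes differed between the stages. Of 16547 genes tested, 6331 (38.3%) were called higher in embryos and 7143 (43.2%) higher in adults, at a limma adjusted p under 0.05, and every called gene had both arrays of 1 stage above both arrays of the other. Arrays did not overlap, with embryos higher, in 41.6% of all genes tested and, with adults higher, in 47.6%. A difference of at least 4-fold was found among 3652 called genes (22.1%) with embryos higher and 3422 (20.7%) with adults higher, 7074 (42.8%) in all. The median difference was -0.17 on the log2 scale, the median of its absolute value 1.62 and the median standard error 0.20. For 1348 genes every probe was at background on both adult arrays, and for 1058 on both embryo arrays. Their fitted differences depend on the background, so folds for such genes are given as lower bounds. On each array the bound is taken against the lowest signal well above background, or against the reading of the gene itself where that was higher. Counts of genes at least 4-fold or 16-fold different, here and by family, use the fitted differences instead. They hold some genes with a bound under that fold, such as tbx-35 at 3.66-fold. Among genes well above background on all 4 arrays 16.7% were called at least 4-fold higher in embryos and 15.6% in adults. A gene counts as seen in a stage where a probe of it was well above background on at least 1 array. The probes of sdz-38, cutl-2, cutl-28, fbxb-53, spp-2, fat-7 and bbs-9, given below, reached this on 1 of the 2 arrays of their lower stage, so their differences rest in part on a reading at background. Among 13253 genes well above background on all 4 arrays the shares called were 35.4% and 42.9%. Where a share of called genes is given for a gene list or family below, these shares are what all genes gave.

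The labelled stages were checked against marker genes. All 10 embryo markers were called higher in embryos, and their summed intensity was 70284 and 75664 in embryos against 2035 and 2824 in adults. Of these markers 5 were still well above background on both adult arrays. All 9 measured markers of the adult body, which are yolk protein and adult cuticle collagen genes, were called higher in adults, at a summed intensity of 1259.8 and 931 in embryos and 1800121 and 1936279 in adults. The 8 sperm markers summed to 505 and 486 in embryos and to 199104 and 280495 in adults. The 8 markers of the adult germ line and oocyte stayed well above background in embryos, at 24317 and 26809 against 414747 and 366674 in adults, and all 8 were called higher in adults. Collagen genes used as markers of larval cuticle were measured in both stages, with sums of 333585 and 308556 in embryos and 404474 and 535101 in adults. Of these 4 genes dpy-7 was called higher in embryos, dpy-13 and dpy-5 higher in adults, and sqt-3 was not called. In embryos the sum was nearly all dpy-7 and sqt-3, and the probes of sqt-3 gave unlike differences between the stages.

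**Figure D1:**
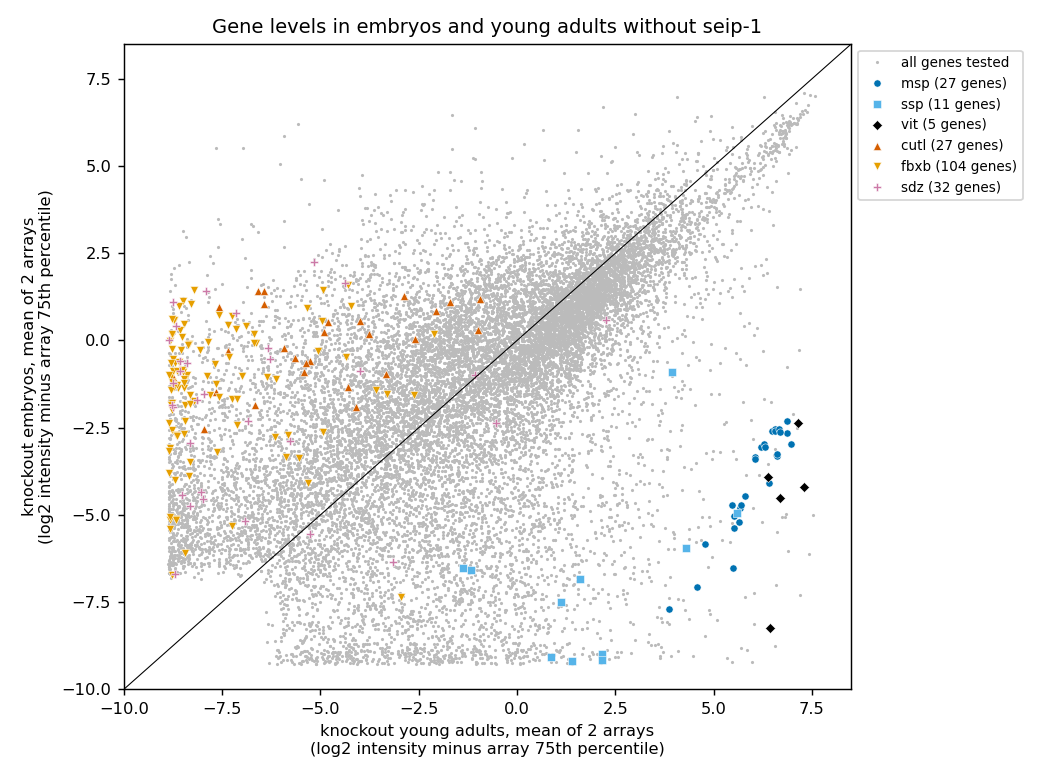
Each point is a gene tested, at its mean scaled log2 intensity over the 2 knockout young adult arrays (horizontal axis) and the 2 knockout embryo arrays (vertical axis), with 6 families coloured and the line of equal level drawn. The msp, ssp and vit genes lie far below the line, and the cutl genes, nearly all fbxb genes and most sdz genes lie above it, many at the adult background on the left.

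Among named genes seen in both stages, those with the largest excess in embryos were of several kinds. The collagen gene dpy-14 read 162769.6 and 153615 in embryos and 40.9 and 68.5 in adults, a log2 difference of 11.76 ± 0.19 (adjusted p = 1.47e-07). The gene mtre-1 read 143643 and 108781 against 21.7 and 79.5, a difference of 11.77 ± 0.47. Both embryo arrays of both genes stood far above both adult arrays. The gene hil-7, of a family named for its likeness to linker histone, read 73641 and 70759 in embryos and 42.5 and 34.9 in adults (11.09 ± 0.37). The C-type lectin family genes clec-266 and clec-196 differed by 10.12 ± 0.78 and 9.37 ± 0.33, the chitinase-family gene cht-5 by 9.21 ± 0.28 and the cuticlin gene cut-6 by 8.59 ± 0.30. For cht-5 the embryo arrays themselves were unequal, at 44931 and 23565, and both lay far above the adult arrays at 50.5 and 80.5. The pes-2.1 and fbxc-51 genes differed by 9.54 ± 0.45 and 9.28 ± 0.53. Among genes at background on both adult arrays, the collagen gene col-74 read 105347 and 91526 in embryos and was at least 5629-fold higher there (adjusted p = 1.66e-07). The cuticlin gene cut-3 was at least 4558-fold higher, dsl-6, of the Notch ligand family, at least 1267-fold, the collagen gene col-121 at least 1086-fold and phat-5 at least 1382-fold. Of the genes given a difference here mtre-1, clec-266 and fbxc-51 were well above background on 1 of the 2 adult arrays, so their size and rank rest in part on background.

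Collagen genes filled most of the other end. Of the 10 genes seen in both stages with the largest excess in adults, 8 were col genes, which encode structural collagens of the cuticle, and the rest were msp-64 and ule-3. The gene col-139 read 21.4 and 13 in embryos and 215679 and 270845 in adults, a log2 difference of -13.61 ± 0.53 (adjusted p = 1.57e-06). Its neighbour in rank, col-80, read 48 and 20.5 against 421073 and 438328 (-13.53 ± 0.47). The groups were far apart in both genes. The probes of col-139, col-80 and ule-3 were well above background on 1 of the 2 embryo arrays, so their size and rank rest in part on background. The differences of ule-3, col-143, col-129, col-179, col-181, col-124 and col-106 lay between -13.14 and -11.82. At background on both embryo arrays were col-142, which read 340134 and 391974 in adults and was at least 23099.9-fold higher there, taken against its own embryo readings, and col-19, a collagen gene switched on at the adult moult, which read 233874 and 243315 and was at least 18087-fold higher (adjusted p = 1.26e-07). The yolk protein gene vit-6 was at least 16510.2-fold higher in adults, col-184 at least 11888-fold and col-81 at least 11500.2-fold.

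Gene families were ordered by the share of all their genes on the array that were called at least 4-fold higher in embryos minus the share called at least 4-fold higher in adults. Over all 20008 genes on the array these shares were 18.3% and 17.1%. The 4-fold calls in this order use fitted differences, also for genes at background in a stage. The families nearest the embryo end, out of 180 with at least 10 genes, were che, vab, cutl, fbxb, bus, dyf, wrt, dbd, sdz and tbx. Of 29 cutl genes, which encode cuticlin-like proteins of extracellular matrix, 27 were tested, 27 were called higher in embryos and 26 were so by at least 4-fold, with a median difference of 4.73. The gene cutl-2 read 5085 and 6672 in embryos and 46.4 and 17.9 in adults (7.87 ± 0.56), and cutl-28 read 4749 and 4212 against 19.6 and 42.3 (7.49 ± 0.36). The F-box family fbxb, whose proteins carry a domain that links substrates to ubiquitin ligases, had 111 genes on the array and 104 tested. In this family 103 were called higher in embryos and 1 in adults, and 79 were at background on both adult arrays. The fbxb median was 6.60 as fitted and 5.59 with those genes at their bounds. The place of fbxb, sdz and tbx among these families rests largely on genes measured in embryos alone, since 79 of 104 fbxb, 21 of 32 sdz and 9 of 16 tbx genes tested were at background on both adult arrays. Of those seen on all 4 arrays, 16 of 16 fbxb genes were called higher in embryos, against 4 of 6 tbx genes with 1 higher in adults, and 3 of 7 sdz genes with 2 higher in adults and a median of 0.10. An example of a gene seen in both stages is fbxb-53, at 2298 and 2605 in embryos and 35.6 and 16.3 in adults (6.88 ± 0.42).

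Other families at the embryo end were linked to the body surface and to sensory neurons. The bus genes, found by altered bacterial attachment to the cuticle, were called higher in embryos in 14 of 14 tested, 12 of them by at least 4-fold. The gene bus-8B read 13980.2 and 10179 in embryos and 42.5 and 135 in adults (7.51 ± 0.44), and bus-5 read 32848 and 22922 against 109 and 475 (7.12 ± 0.57). The adult arrays were unequal for both genes, with array 2 the brighter, and neither reached the embryo arrays. All 10 wrt genes, relatives of hedgehog, were called higher in embryos, with wrt-2 at 29375 and 23706 against 101 and 361 (7.32 ± 0.64). In the che and dyf families, named for chemotaxis and dye-filling defects of sensory neurons, 10 of 10 and 11 of 12 genes were called higher in embryos, with medians of 3.90 and 4.43. The family vab, named for a variable abnormal shape of the body, was called higher in 10 of 10, with the PAX6 homologue vab-3 at 3118 and 3114 in embryos and 109.5 and 139 in adults (4.87 ± 0.16). Of 18 dbd genes tested, 15 were called higher in embryos and 1 in adults, with a median of 4.46.

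The families at the adult end were pgp, pho, fipr, spig, spe, lys, nspd, msp, nspc and ssp. All 27 msp genes, which encode the major sperm protein of the sperm cytoskeleton, were called at least 4-fold higher in adults, with a median of -9.93. The gene msp-64 read 23.2 and 23.5 in embryos and 92132 and 136260.3 in adults (-12.02 ± 0.17), and msp-31 read 51.4 and 52.3 against 100405 and 133612 (-10.91 ± 0.14). No array of a stage overlapped the other stage in either gene. All 17 nspc and 11 ssp genes and 9 of 9 nspd genes tested were called at least 4-fold higher in adults, with medians of -8.01, -9.95 and -9.29. Of these genes 6 nspc, 5 ssp and 2 nspd genes were at background on both embryo arrays. The ssp median was -8.44 with the genes at background in embryos at their bounds. The lysozyme family lys had 8 of 8 genes tested called higher in adults, with lys-4 at 2289 and 1256 in embryos and 33784 and 62833 in adults (-4.55 ± 0.30). In the pho family of acid phosphatases, 8 of 11 were called higher in adults and 1 in embryos. In the pgp family of P-glycoprotein transporters, 11 of 15 were called higher in adults and 2 in embryos, and pgp-5 was uneven between the adult arrays, at 988 and 7136. The fipr and spig families had 19 of 23 and 12 of 14 genes called higher in adults, and spig-12 went the other way, at 13199 and 14082 in embryos and 176 and 146 in adults (6.62 ± 0.21). Probes of the msp, ssp, fbxb, tbx, histone, yolk and collagen genes may also bind close relatives, and cross-hybridisation was not measured.

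**Figure D2:**
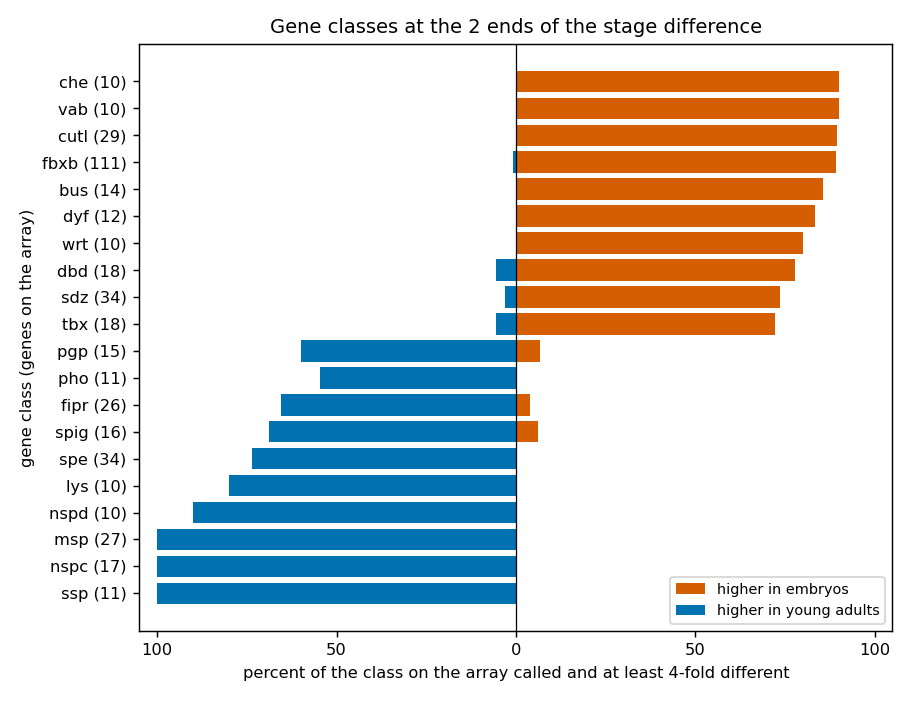
Bars give, for the 10 families nearest each end out of 180, the percent of all genes of the family on the array called at least 4-fold higher in knockout embryos (to the right) and in knockout young adults (to the left). The msp, nspc and ssp families reach 100.0% on the adult side, and the che and vab families reach 90.0% on the embryo side. Folds are as fitted, also for genes at background in a stage.

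Some larger families were split between the stages and others lay mostly on the embryo side, and those given here were chosen after their values were seen. Of 157 col genes on the array, 147 were tested, 35 called higher in embryos and 81 higher in adults, and a difference of at least 16-fold was reached by 13 in embryos and 59 in adults. The nuclear hormone receptor family nhr was called higher in embryos in 184 of 227 genes and higher in adults in 19, with a median of 1.51. Of 58 homeobox genes of the ceh family 48 were called higher in embryos and 6 in adults, with a median of 3.11. The F-box family fbxa went the other way from fbxb in its counts, with 44 called higher in embryos and 92 in adults of 157 tested. The C-type lectin family clec had 44 and 85 of 155. Histone genes were called higher in embryos in 35 and in adults in 3 of 47 tested, with a median of 1.00. The counts of these larger families were not taken under other scalings of the arrays.

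Genes that the embryo switches on in its early lineages were mostly higher in embryos. Of 28 early zygotic genes tested 24 were called higher in embryos and 2 higher in adults, and 17 were at background on both adult arrays. Their median difference was 4.13 as fitted and 2.80 with genes at background set at their bounds. Among the 7 members seen on all 4 arrays, 5 were called higher in embryos and 2 in adults. The early embryonic transcript pes-10 read 1274 and 1569 in embryos and 5.34 and 6.41 in adults, at least 81-fold higher in embryos (adjusted p = 4.45e-07). The gene sdz-38, named for zygotic expression that depends on the SKN-1 factor, read 2004 and 1759 against 31.4 and 30.6 (6.13 ± 0.16). The GATA factor genes end-1 and end-3 specify the gut lineage. They differed in their adult level: end-1 read 759 and 1036 in embryos and 6.28 and 7.56, at background, in adults, a difference of at least 50.8-fold, while end-3 read 314 and 358 against 95.1 and 236 (1.38 ± 0.34). The members called higher in adults were sdz-27 (-1.68 ± 0.16) and the T-box gene tbx-36 (-1.18 ± 0.26). For tbx-36 the intensities were 306 and 310.3 in embryos and 897 and 728 in adults.

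Transcription factors that set tissue identity were higher in embryos in 29 of 31 members tested and called higher in adults in 0, with a median of 4.43. The gene elt-6, a GATA factor of the epidermis, read 1378 and 1193 in embryos and 43.4 and 49.2 in adults (5.01 ± 0.14, adjusted p = 5.28e-07). The homeobox gene ceh-32 read 7617 and 7765 in embryos and 307 and 385 in adults (4.70 ± 0.14). The homeobox gene mls-2 read 1684 and 1813 in embryos and 7.72 and 8.89, at background, in adults, and was at least 100.2-fold higher in embryos. The pharynx factor pha-4 differed by 4.43 ± 0.16, the muscle factor hlh-1 by 3.70 ± 0.19 and the nuclear receptor nhr-25, which acts in the epidermis, by 5.36 ± 0.17. Members that were not called were pal-1, which is also loaded by the mother, at -0.57 ± 0.24, and tbx-9, at 0.62 ± 0.33. All 6 Hox genes, which pattern the body from head to tail, were called higher in embryos, with a median of 3.07. The posterior Hox gene egl-5 read 1868 and 1693 in embryos and 136 and 166 in adults (3.78 ± 0.12), and ceh-13, the anterior member, read 4548 and 5184 against 426 and 558 (3.53 ± 0.17).

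Genes listed for the temporary surface matrix of the embryo and for the junctions of its skin were also mostly higher in embryos. Of 16 genes on the list of the precuticle and embryonic sheath 14 were called higher in embryos and 1 in adults, with a median of 5.58. Whether each member, such as the collagen gene dpy-17, belongs to the temporary matrix was not checked. The gene noah-2, which encodes a zona pellucida protein of the sheath, read 27111 and 30235 in embryos and 400.5 and 535 in adults (6.16 ± 0.17, adjusted p = 5.52e-07). The lipocalin gene lpr-1 read 7747 and 7276 against 133 and 183 (5.80 ± 0.16), the leucine-rich repeat gene let-4 6226 and 6613 against 233 and 383 (4.64 ± 0.21), and the collagen gene dpy-17 196535 and 188351 against 868 and 719 (8.14 ± 0.20). In all 4 genes the embryo arrays were close to each other and far above the adult arrays. The member called higher in adults was egg-6 (-1.37 ± 0.24), another leucine-rich repeat gene. Of 21 genes of epidermal junctions and elongation 18 were called higher in embryos and 0 in adults, with a median of 2.42. The junction scaffold gene dlg-1 read 21609 and 20545 in embryos and 751 and 909 in adults (4.89 ± 0.14), and sma-1, the heavy spectrin that elongation needs, read 11525 and 12196 against 1079 and 1400.1 (3.48 ± 0.14). The ephrin gene vab-2 differed by 4.56 ± 0.14 and the intermediate filament gene ifa-3 by 4.88 ± 0.15. Not called were the beta-catenin gene hmp-2 (0.24 ± 0.21), mua-3 (0.25 ± 0.18) and ifb-1 (-0.16 ± 0.19).

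Most genes of sensory cilia and of synaptic release were higher in embryos. Of 39 genes of the cilium and of intraflagellar transport, the traffic of proteins along the cilium, 38 were called higher in embryos and 0 in adults, with a median of 4.17. All 31 members seen on all 4 arrays were among them. The transport particle gene osm-6 read 3489 and 2885 in embryos and 81.2 and 96.1 in adults (5.38 ± 0.13, adjusted p = 4.08e-07). Its partner osm-5 read 3029 and 2436 against 97.3 and 111 (4.92 ± 0.14), and the stages did not overlap in either gene. The nephrocystin gene nphp-1 of the transition zone was at least 121-fold higher in embryos, and bbs-1, of the Bardet-Biedl syndrome complex, at least 48.2-fold. The member that was not called was bbs-9 (1.78 ± 0.99, adjusted p = 0.135). Of 26 genes of synaptic release and transmitter identity 23 were called higher in embryos and 2 in adults, with a smaller median of 1.81. The calcium channel genes egl-19 and unc-2 differed by 3.19 ± 0.16 and 2.99 ± 0.21, with unc-2 at 4056 and 2737 in embryos and 489 and 485 in adults. The pan-neuronal gene unc-119 differed by 2.09 ± 0.15 and ric-19 by 2.56 ± 0.14. The members called higher in adults were egl-3, the proprotein convertase of neuropeptides (-1.28 ± 0.22), and tdc-1, the tyrosine decarboxylase, whose probes disagreed in direction, from -2.31 to 2.28. Of 28 genes of the FMRFamide-like peptide family flp 18 were called higher in adults and 5 in embryos, with a median of -1.01. Of 71 genes of the neuropeptide-like family nlp 28 were called higher in adults and 19 in embryos, with a median of -0.42. All genes tested gave 43.2% in adults, 38.3% in embryos and a median of -0.17, so nlp held no larger share in adults. Neither neuropeptide family is among the 25 lists or the families named at either end.

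Muscle genes went both ways. Of 36 tested, 15 were called higher in embryos and 14 in adults, with a median of 0.02 that changed sign with median scaling and without knockout embryo array 1. Under quantile normalization 20 were called higher in embryos and 9 in adults. Called higher in embryos were, among others, unc-112, a kindlin, at 24591 and 22169 in embryos and 7506 and 10602 in adults (1.60 ± 0.14), the vinculin gene deb-1 (1.83 ± 0.17) and the parvin gene pat-6 (1.32 ± 0.13). The myosin chaperone unc-45 differed by 2.08 ± 0.17. Called higher in adults were, among others, the troponin T gene tnt-2, at 8176 and 4066 against 99302 and 106057 (-3.94 ± 0.28), and the troponin I gene unc-27 (-2.13 ± 0.18). The myosin heavy chain gene unc-54 differed by -1.11 ± 0.19 and the perlecan gene unc-52 by 1.21 ± 0.16.

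Cell cycle and cell death genes had smaller differences. Of 41 genes of the cell cycle, kinetochore and replication, 6 were called higher in embryos, 13 in adults and 22 were not called, and their median of -0.17 changed sign under quantile normalization and without either knockout array 1. Quantile normalization called 13 higher in embryos and 8 in adults, and leaving out knockout embryo array 1 or knockout adult array 1, or fitting the knockout arrays alone, called 8 in adults. Higher in embryos were cki-1, the inhibitor that takes cells out of the cycle, at 24935 and 25313 in embryos and 1148 and 1677 in adults (4.39 ± 0.22), and cyd-1, the cyclin D gene (1.06 ± 0.15). The spindle midzone gene spd-1 (-1.58 ± 0.17), the cyclin B genes cyb-2.1 (-1.87 ± 0.21) and cyb-2.2 (-1.72 ± 0.23) and the cyclin E gene cye-1 (-1.56 ± 0.22) were higher in adults. Of 22 genes of cell death and engulfment 5 were called higher in embryos and 8 in adults, with a median of -0.38, and 5 were called higher in adults without either knockout array 1 or with the knockout arrays alone. The death trigger egl-1 read 517 and 569.7 in embryos and 91.7 and 110.5 in adults (2.64 ± 0.19), and ced-8, which acts in the exposure of phospholipid on dying cells, differed by 3.33 ± 0.39. Higher in adults were psr-1, an engulfment receptor (-1.74 ± 0.16), and the nucleases cps-6 (-1.93 ± 0.14) and nuc-1 (-1.30 ± 0.22). Heat shock genes also went both ways, with 12 of 24 called higher in embryos and 7 in adults. The small heat shock gene hsp-12.1 read 7790.3 and 6912 in embryos and 368 and 499.6 in adults (4.31 ± 0.17), while hsp-17 read 2319 and 1305 against 12288 and 14740.4 (-2.74 ± 0.23).

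Sperm and yolk genes were among those with the largest adult excess. Of 38 sperm genes other than msp 36 were called higher in adults and 2 in embryos, with 11 at background on both embryo arrays. Their median was -4.90 as fitted and -4.14 at the bounds. The sperm histone gene htas-1 read 8929 and 14182 in adults and was at least 853-fold higher there, and ssp-19 was at least 348-fold higher. The phosphatase genes gsp-3 and gsp-4 differed by -7.46 ± 0.39 and -7.53 ± 0.26. Called higher in embryos were try-5, a protease of male seminal fluid (2.03 ± 0.15), and spe-29, whose probes disagreed in direction, from -3.05 to 1.95. All 5 yolk protein genes measured were called higher in adults. The gene vit-2 read 161 and 129.7 in embryos and 201513 and 214038 in adults (-10.28 ± 0.19), and vit-5 read 133 and 103 against 384705 and 406280.0 (-11.51 ± 0.15). The probes of a yolk gene gave differences of unlike size in vit-2, vit-4, vit-5 and vit-6. The yolk receptor of the oocyte, rme-2, read 2767 and 3042 in embryos and 152079 and 125459 in adults (-5.36 ± 0.27).

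The germ line programme was also higher in adults. Of 32 genes of the meiotic chromosome axis, synapsis and recombination 31 were called higher in adults, with a median of -2.22. The meiotic kinase gene chk-2 read 99.8 and 92.1 in embryos and 973 and 1025 in adults (-3.17 ± 0.14, adjusted p = 2.62e-06), the axis gene htp-1 1095 and 1155 against 9535 and 9577 (-2.87 ± 0.17), and the crossover gene him-14 346 and 339 against 5446 and 4939 (-3.71 ± 0.21). Both adult arrays lay above both embryo arrays in each of these genes. The exception was rad-51, the strand exchange recombinase, at 1.08 ± 0.15, whose probes ran from -1.09 to 1.08. Of 21 components of P granules, the RNA-rich bodies of germ cells, 18 were called higher in adults and 0 in embryos, with a median of -2.19. The helicase gene glh-1 read 7146 and 7489 in embryos and 112148 and 118467 in adults (-3.76 ± 0.14), pgl-1 differed by -3.14 ± 0.16 and the Argonaute gene csr-1 by -3.33 ± 0.16. The members that were not called, meg-2 (-0.01 ± 0.26), meg-3 (-0.37 ± 0.26) and gls-1 (-0.15 ± 0.14), had values nearer 0.

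Genes on the list of maternal RNA-binding fate regulators were called higher in adults in 23 of 28 members and higher in embryos in 3, with a median of -1.33. Whether mothers load the RNA of each member into eggs was not checked, and some members act elsewhere. The PUF repressor genes fbf-1 and fbf-2, which act in germline stem cells, differed by -3.07 ± 0.20 and -3.60 ± 0.19, with fbf-2 at 399 and 300.1 in embryos and 4672 and 5065 in adults. The oocyte PUF genes puf-3 and puf-11 differed by -3.17 ± 0.21 and -2.89 ± 0.21. Some members had values nearer 0, with mex-1 at -0.73 ± 0.25, pos-1 at -0.96 ± 0.25 and nos-2, which was not called, at -0.58 ± 0.30. Others lay near or beyond the median of the list, with mex-5 at -1.15, mex-6 at -1.11, mex-3 at -1.33, spn-4 at -1.27 and pie-1 at -1.62. Higher in embryos were the splicing regulator fox-1 (4.02 ± 0.20), etr-1 (0.80 ± 0.16) and larp-1 (0.33 ± 0.13). Among 14 genes of the somatic gonad and of the gap junctions between gonad and germ line, 7 were called higher in embryos and 6 in adults. The sheath innexin gene inx-8 read 57.3 and 51.6 in embryos and 14685 and 15468 in adults (-7.90 ± 0.15), and inx-9 read 55.9 and 48.3 against 5433 and 5086 (-6.45 ± 0.17). The Notch ligand lag-2, which signals to germline stem cells and also acts in embryos, was at least 9.66-fold higher in embryos.

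Eggshell genes, the subject of the study's title, were called higher in adults in 18 of 26 members tested and higher in embryos in 3, with a median of -3.01. Under quantile normalization 7 were called higher in embryos. The genes perm-2 and perm-4 are needed for the permeability barrier beneath the shell. The brighter probe of perm-2 read 11.2 and 18.4 in embryos, at background, and 162116 and 164228 in adults, and was at least 9797-fold higher there (adjusted p = 2.83e-07). Its other measured probe differed by -8.72. The gene perm-4, at background in embryos, read 30521 and 28691 in adults and was at least 2244-fold higher there. The sperm-derived factor spe-11 was at least 214-fold higher in adults. The chitin synthase gene chs-1 differed by -5.03 ± 0.26, the sperm receptor genes egg-1 and egg-2 by -5.44 ± 0.29 and -4.64 ± 0.27, and the chitin-binding proteoglycan genes cpg-1 and cpg-2 by -3.92 ± 0.29 and -4.13 ± 0.27. In egg-1 the arrays read 402 and 395 in embryos and 21643 and 18579.8 in adults. Higher in embryos were the fatty acid synthase gene fasn-1, at 34221 and 39304 in embryos and 11245 and 14272 in adults (1.75 ± 0.17), the kinase gene mbk-2 (1.43 ± 0.19) and gna-1 (0.98 ± 0.16). Not called were perm-3 (-0.14 ± 0.16), pod-1 (0.21 ± 0.14), pod-2 (0.07 ± 0.16), emb-8 (-0.19 ± 0.14) and daf-22 (0.42 ± 0.17).

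Collagens of the cuticle went both ways by gene. Of 23 furrow and body-shape collagens 17 were called higher in adults and 4 in embryos, with a median of -3.21. The furrow collagen genes dpy-10, dpy-7 and dpy-2 were higher in embryos, by 5.98 ± 0.14, 7.18 ± 0.37 and 5.99 ± 0.29, with dpy-10 at 49828 and 52076 in embryos and 878 and 997 in adults. The furrow collagen genes dpy-3, dpy-8 and dpy-9 were higher in adults, with differences of -0.75 ± 0.15, -3.21 ± 0.53 and -1.58 ± 0.21. The blister collagen gene bli-1 was at least 31.7-fold higher in adults, dpy-4 differed by -3.43 ± 0.22 and sqt-1 by -4.89 ± 0.54. Several of these genes were unequal between the adult arrays, such as dpy-13 at 1453 and 861 in embryos and 9857 and 47224 in adults, and dpy-5 at 1555 and 1295 against 16886 and 73369.9. Both were higher in adults on each array (-4.06 ± 0.66 and -4.42 ± 0.60). The gene sqt-3 was not called (-0.21 ± 0.13), and its probes ran from -0.21 to 7.31.

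**Figure D3:**
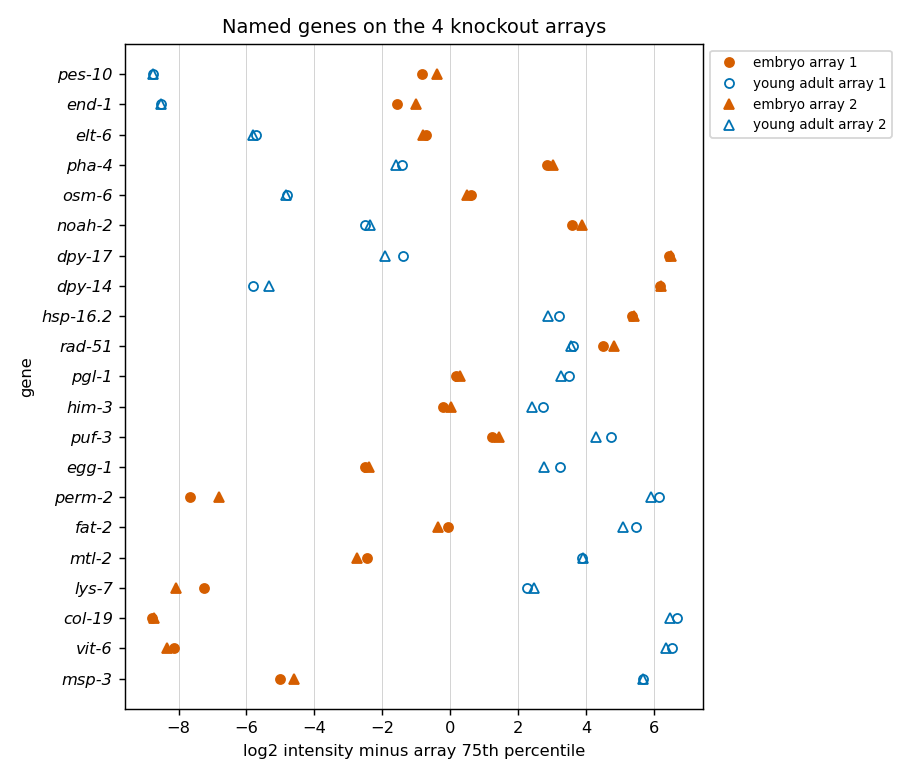
Scaled log2 intensity of 21 genes, picked from those named by rule after their values were seen, on each of the 2 knockout embryo arrays (filled) and 2 knockout young adult arrays (open), with circles for array 1 and triangles for array 2. The stages stand apart in all 21 genes, from pes-10 and end-1 at the top with embryos higher to col-19, vit-6 and msp-3 at the bottom with adults higher.

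Genes of the gut and of defence were mostly higher in adults. Of 29 genes of intestinal digestion and the gut lumen 22 were called higher in adults and 4 in embryos, with a median of -1.80. The metallothionein gene mtl-2 read 415 and 307 in embryos and 33672 and 41414 in adults (-6.49 ± 0.19), and the cathepsin B-like protease gene cpr-1 read 952 and 427 against 124699 and 143948 (-7.50 ± 0.32). The lipase genes lipl-5 and lipl-2 went opposite ways, at -5.66 ± 0.20 and 1.70 ± 0.15, and the gut intermediate filament gene ifd-1 was higher in embryos (2.25 ± 0.35). Of 28 innate immune effector genes 22 were called higher in adults and 2 in embryos, with a median of -3.47. The lysozyme gene lys-7 read 10999 and 15071 in adults, was at background in embryos, and was at least 786-fold higher in adults. The saposin-like genes spp-1 and spp-2 differed by -4.65 ± 0.14 and -5.64 ± 0.19. The antimicrobial peptide genes nlp-31 and cnc-4, which act in the epidermis, were higher in embryos, at 2.23 ± 0.16 and 2.67 ± 0.36.

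Genes of lipid metabolism had unlike values by step. Of 18 fatty acid desaturase, elongase and chain-lengthening genes 15 were called higher in adults and 3 in embryos, with a median of -2.97. The desaturase gene fat-2 read 2164 and 1609 in embryos and 101892 and 94386 in adults (-5.50 ± 0.19, adjusted p = 1.06e-06), fat-6 differed by -5.79 ± 0.22 and fat-7 by -9.92 ± 0.46. The elongase gene elo-5, of branched-chain fatty acid synthesis, read 88.4 and 55 against 25515 and 24958 (-8.29 ± 0.22). Higher in embryos were elo-3 (1.03 ± 0.16), elo-4 (2.79 ± 0.31) and elo-9 (1.59 ± 0.15). Triglyceride and lipid droplet genes, the group nearest to the role of seipin, were called higher in adults in 8 of 18 and higher in embryos in 5, with a median of -0.37 near the -0.17 of all genes. The diacylglycerol acyltransferase gene dgat-2 read 2650.2 and 2329.5 in embryos and 9116 and 10839.7 in adults (-1.79 ± 0.13), and the droplet-associated dehydrogenase gene dhs-3 read 7002 and 4815 against 24681 and 25434 (-1.90 ± 0.19). The FIT protein gene fitm-2, which acts in droplet formation, differed by -1.30 ± 0.15 and the perilipin gene plin-1 by -0.96 ± 0.18. Higher in embryos were acs-3 (2.96 ± 0.25), the lipid gene coactivator mdt-15 (1.45 ± 0.13), and the lipase genes hosl-1 (1.68 ± 0.15) and atgl-1 (0.98 ± 0.20).

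Subunit genes of large protein complexes were mostly higher in adults, by small amounts. Of 36 genes of the respiratory chain and ATP synthase 34 were called higher in adults and 1 in embryos, with a median of -0.97. Under quantile normalization, which moved the median of all genes from -0.17 to -0.04, 11 of them were called higher in adults. The germline ATP synthase subunit gene asb-1 read 8593 and 9162 in embryos and 48341 and 50469 in adults (-2.26 ± 0.15), and its relative asb-2 differed by -1.05 ± 0.13. Of 32 proteasome subunit genes 30 were called higher in adults and 0 in embryos, with a median of -1.31, and rpn-13, a ubiquitin receptor, differed by -2.31 ± 0.14 and pas-1 by -2.28 ± 0.16. All 30 rps genes and 44 of 47 rpl genes, which encode cytosolic ribosomal proteins, were called higher in adults, with medians of -0.93 and -0.81. Of 41 genes of the mitochondrial ribosome 39 were called higher in adults, with a median of -0.88. The ribosomal families were chosen after their values were seen, and their counts were not taken under quantile normalization or the other alternatives.

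**Figure D4:**
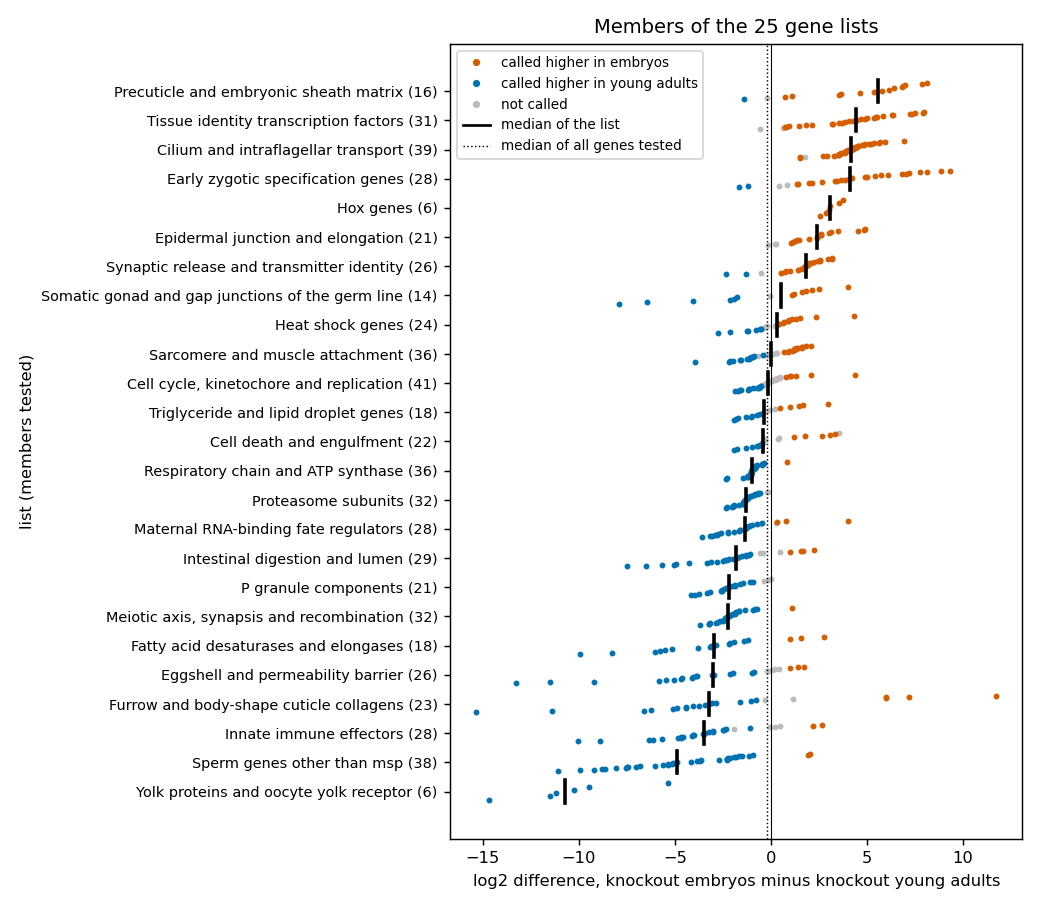
Each point is a member of 1 of the 25 gene lists, at its log2 difference, knockout embryos minus knockout young adults, coloured where called higher in embryos or in adults; black bars are list medians and the dotted line is the median of all genes tested, -0.17. The yolk list lies farthest to the left at -10.73 and the precuticle list farthest to the right at 5.58.

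Genes of the X chromosome were shifted towards embryos. Of 2327 X genes tested 1371 were called higher in embryos and 582 in adults, with a median difference of 1.10. The autosomes had medians from -0.58 on chromosome IV to -0.18 on chromosome V. Among X genes seen on all 4 arrays the median was 0.96, with 1110 called higher in embryos and 449 in adults of 1896. At least 4-fold differences were called in 30.3% of the X genes on the array with embryos higher and in 11.4% with adults higher, against 18.3% and 17.1% of genes on any chromosome. The germ line of the worm is known to keep most of its X-linked genes silent, which is given here as background. In wild type the X median was 0.07. In the test of the difference between genotypes, the embryo-minus-adult value was called larger in the knockout for 39.0% of all genes and smaller for 33.6%. Of 2355 X genes it was called larger in 1332 (56.6%) and smaller in 419 (17.8%). With arrays scaled to their medians these counts were 980 (41.6%) and 824 (35.0%), against 26.9% and 50.9% of all genes.

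The 2 arrays of a stage differed by gene list. In embryos, array 2 was the brighter for 41 of 41 cell cycle genes, 32 of 32 proteasome genes and 31 of 32 meiotic genes, and array 1 for 27 of 28 immune genes, 25 of 26 synaptic genes and 34 of 39 cilium genes. In adults, array 1 was the brighter for 32 of 32 meiotic, 28 of 28 maternal RNA-binding and 32 of 32 proteasome genes, and array 2 for 31 of 38 sperm genes and 19 of 23 furrow and body-shape collagens. Over all genes tested array 1 was the brighter in 7911 in embryos and 8783 in adults. The median gap between the adult arrays was -0.87 on the log2 scale for the collagens and 0.34 for the meiotic genes. The part of these gaps in the stage differences was not tested.

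The stage difference of the knockout was set beside that of wild type, embryos minus adults on the same scale. The ages of the embryos pooled in each genotype are not given. Age of the embryos and genotype therefore cannot be told apart in any value that compares the genotypes. The test of the difference between them called 12225 of 16829 genes (72.6%). A larger embryo-minus-adult value in the knockout was called for 6568 (39.0%) and a smaller value for 5657 (33.6%). Larger here means shifted towards embryos, whatever the size of the gap between the stages. Which side held more genes depended on the scaling of the arrays. Of the called genes 53.7% were larger in the knockout under the 75th percentile, 46.2% after the normexp correction and 34.6% with arrays scaled to their medians (4528 against 8567). Quantile normalization gave 5675 against 5679. The median of the difference over all genes was 0.10, -0.21, -0.98 and -0.06 in that order. The median processed intensity was 74.7 and 77.4 on the wild-type embryo arrays and from 214 to 276 on the other 6 arrays. Wild-type embryos and adults differed in 6670 genes (41.4%) with embryos higher and 6866 (42.6%) with adults higher. Of 10766 genes called in both genotypes 8482 had the same direction and 2284 the opposite. All 2284 were also called in the test of the difference, which opposite calls in the same fit nearly ensure, so it is no separate support. Of the opposite genes 1084 were higher in embryos in the knockout and higher in adults in wild type, and 1200 the reverse. Across the genes tested the 2 stage differences had a Pearson r of 0.84 and a Spearman rho of 0.72, as a description, since genes are not independent.

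By list, the medians of the 2 genotypes differed in both directions, and the larger count lay on the same side under all 4 scalings for the lists given here, other than the sperm and tissue identity lists. The cilium list had a median of 4.17 in the knockout and 1.43 in wild type, and 38 of 39 members had a larger value in the knockout by the test of the difference and 0 a smaller. The synaptic list stood at 1.81 against -0.66, with 21 larger and 3 smaller, and the muscle list at 0.02 against -2.70, with 33 and 0 of 36. These counts stand against 39.0% larger and 33.6% smaller over all genes. For the gut list the medians were -1.80 and -4.53, with 26 larger and 0 smaller, and for the furrow and body-shape collagens -3.21 and -4.82, with 16 and 0. In the other direction, the meiotic list had a median of -2.22 in the knockout and 0.37 in wild type, with 0 larger and 32 smaller. The proteasome list stood at -1.31 against 0.73, with 32 of 32 smaller, the P granule list at -2.19 against -0.02, with 21 of 21, and the cell cycle list at -0.17 against 1.60, with 38 of 41. Early zygotic genes were at 4.13 and 6.89 as fitted, with 1 larger and 26 smaller. Of these 28 genes 17 were at background on both knockout adult arrays. The 7 seen on all 4 knockout arrays had medians of 1.40 in the knockout and 2.84 in wild type. Eggshell genes were at -3.01 and -1.51, with 4 larger and 17 smaller. Sperm genes had close medians of -4.90 and -4.85, with 10 larger and 10 smaller, and tissue identity factors 4.43 and 3.95, with 9 and 7. With arrays scaled to their medians 6 sperm genes were larger and 20 smaller, and 3 and 20 tissue identity factors, where all genes gave 26.9% larger and 50.9% smaller. Summed marker intensities, which were not scaled between arrays, also differed between the embryos of the genotypes. The 75th percentile was 2267 and 2064 on the knockout embryo arrays and 1387 and 1470 on the wild-type embryo arrays. These sums therefore also carry the brightness of the array, and gaps with knockout embryos higher would be smaller after scaling. The collagen sum in knockout embryos was nearly all dpy-7 and sqt-3. The summed intensity of 4 larval cuticle collagens was 333585 and 308556 in knockout embryos against 104116 and 104079 in wild-type embryos, and that of adult body markers 1259.8 and 931.3 against 244 and 244. The germ line and oocyte markers summed to 24317 and 26809 in knockout embryos against 66514 and 95151 in wild-type embryos, and the embryo markers to 70284 and 75664 against 40784 and 38297. The part of these marker differences in the values of the lists was not tested.

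**Figure D5:**
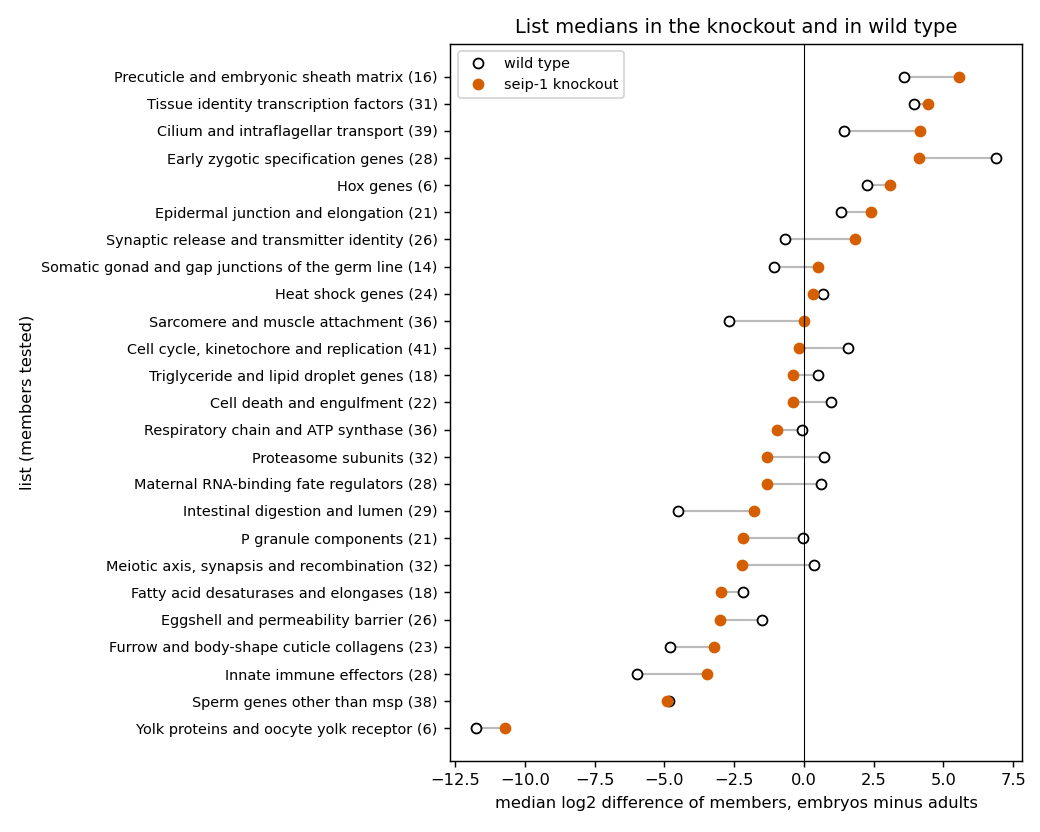
Median log2 difference, embryos minus young adults, of each of the 25 gene lists in the knockout (filled) and in wild type (open). The knockout median lies to the right of the wild-type one for the cilium, synaptic, muscle and gut lists and to the left for the meiotic, P granule, proteasome and cell cycle lists, and both are close for the sperm list.

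The genes with the largest values in the test of the difference, among those seen in all 4 groups, were these. The gene bath-26, of a family of BTB and MATH domain proteins, read 492 and 275 in knockout embryos and 5.01 and 48.3 in knockout adults, against 17.9 and 18.8 in wild-type embryos and 80 and 47.5 in wild-type adults. Its stage difference was 4.77 ± 0.89 in the knockout and -0.95 in wild type, a difference of 5.73 ± 1.25 (limma adjusted p = 0.00623). Its reading of 5.01 was at background, so the size and rank of the value rest in part on background, and without that array the difference was 4.22 ± 0.46. The family member bath-47, also at background on 1 of the 2 knockout adult arrays, differed by 5.64 ± 0.97, and bah-1, named for the loss of biofilm on the head, by 5.07 ± 0.59, with 2719 and 1478 in knockout embryos and 42.5 and 38.8 in wild-type embryos. For clec-4 the value was 5.13 ± 0.64, and for gba-4, a relative of glucocerebrosidase genes, 5.06 ± 0.40. The gene clec-4 lost its call between knockout stages without either knockout array 1 and with array weights, and its knockout adult arrays were unequal, at 624 and 1782. At the other end were the carnitine palmitoyltransferase gene cpt-3 (-3.69 ± 0.41), the collagen gene col-78, at background on 1 of the 2 knockout embryo arrays (-3.65 ± 0.25), the gut lineage factor end-3 (-3.22 ± 0.48), sdz-37 (-3.19 ± 0.96) and the histone gene his-61 (-3.11 ± 0.28). The histone gene his-61 read 1431 and 1743 in knockout embryos and 2871 and 2815 in knockout adults, and 8189 and 7735 in wild-type embryos against 2563 and 2403 in wild-type adults, so the higher stage was not the same in the genotypes. All 10 genes kept their direction and call in this test under the 4 scalings. Without either knockout array 1, cpt-3 and his-61 were not called between the knockout stages, nor was his-61 with the knockout arrays alone, and sdz-37 lost its call in the test of the difference without any 1 of 5 arrays.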

How the data were processed

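Total RNA of each sample (0.2 µg) was labelled with Cy3 and hybridised to a single-colour Agilent array. Per the file headers, the authors extracted each spot's processed intensity, corrected for background and for trends over the array, with Agilent Feature Extraction (version 10.7.1.1 per the submitters' processing notes). The deposited value table holds log2 values. All 43585 probes compared lay within 0.01 of log2 values recomputed from the deposited intensity and centred on wild type within each stage, so that table was not used for stages.

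Spots of a probe were averaged on the log2 scale, control spots and flagged spots left out (4 to 12 flagged on an array, 0 saturated), and each array's 75th percentile over non-control probes was taken off. Probes were named through sequence name (31500) or transcript accession (3674), and 8429 stayed unnamed. The 18 probes with a missing array value were left out. No coordinates are given, since the design of the array is on an older build than the reference table. A gene took the value of its brightest measured probe. The linear model had a mean for each of the 4 groups over all 8 arrays, in limma 3.58.1 (R 4.3.3, moderated test, two-sided, 4 residual and 2.39 prior degrees of freedom). Benjamini-Hochberg adjusted p under 0.05 over all genes tested made a call. Slide equals stage and could not be a term. The number of arrays limits the precision.

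Named genes are seip-1, stage markers, the 10 largest differences and 5 largest bounds per direction, up to 4 called members per list and up to 2 in the other direction, 3 members of each of the 10 families nearest each end, and the 5 largest genotype differences per direction. Further list members, among them all that are named as not called, were picked with their values in view. The comparison, the 25 lists and the markers were chosen with earlier results of these data known. Of the listed symbols 18 matched no gene on the array. The fitting procedure was tested on simulated data. Plots were made in Python 3.11.15 with matplotlib 3.10.9. Alternatives were median scaling, quantile normalization, normexp correction, mean of probes, filters, array weights, another prior, the knockout arrays alone, a replicate block and leaving out each array. Replicate numbers of the knockout stages did not pair the samples.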

Additional observations from a re-analysis of the deposited data

Results flagged for a closer look

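The stage difference, embryos minus young adults, differed between the knockout and wild type by limma's test of the difference (Benjamini-Hochberg adjusted p under 0.05). The signed embryo-minus-adult value was larger in the knockout for 6568 genes and smaller for 5657. This split turned with arrays scaled to their medians (4528 and 8567). Of 254 named genes 177 were called in this test, 106 larger and 71 smaller, where 72.6% of all genes were called and 10 of the named genes were picked by this test, and those 10 are given here. On the log2 scale the value of bath-26 was 5.73, of bath-47 5.64, of clec-4 5.13, of bah-1 5.07 and of gba-4 5.06. At the other end cpt-3 stood at -3.69, col-78 at -3.65, end-3 at -3.22, sdz-37 at -3.19 and his-61 at -3.11. All 10 rest on 2 arrays a group. The probes of bath-26 and bath-47 were at background on 1 knockout adult array and that of col-78 on 1 knockout embryo array.

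Among 8429 probes with no gene name, which entered no comparison, 585 were well above background on both knockout embryo arrays and on neither wild-type embryo array, against 131 in the reverse. In adults 34 were seen on both knockout arrays and on neither wild-type array, against 26 in the reverse. Over all probes, 75.5% and 71.9% were well above background on the knockout embryo arrays against 65.7% and 66.6% on the wild-type embryo arrays. The adult shares were 69.3% and 69.1% in the knockout against 70.8% and 68.3% in wild type. These shares are another measure than the counts above, which were not taken for named probes. Whether the excess in knockout embryos is particular to unnamed probes was not tested.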

How the results depend on the processing

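The counts of genes called between the knockout stages stayed within 1.5 times of 6331 and 7143 under every alternative at the same threshold. Among genes well above background on all 4 knockout arrays 4782 and 5808 were called under a fit restricted to them, and a minimum of 4-fold left 3652 and 3422. Leaving out 1 array at a time gave 5969 to 6212 genes higher in embryos, 6570 to 7111 higher in adults and 10643 to 12519 in the test of the difference from wild type. Median scaling moved the median of all genes to -0.35 and quantile normalization to -0.04. In the test of the difference from wild type the split was more sensitive, at 6568 larger and 5657 smaller in the knockout against 4528 and 8567 under median scaling, 5675 and 5679 under quantile normalization and 5292 and 6173 after the normexp correction. With the replicate number as a block 6155, 6880 and 11547 genes were called. Same-numbered knockout embryo and adult arrays deviated in opposite directions (correlation -0.28), as did wild-type and knockout adult arrays (-0.53). The other pairs of groups ran from -0.07 to 0.26. With the numbers of the knockout adult arrays crossed, an alternative added after the data were seen, the counts were 6524, 7491 and 12731. The labels give no basis for pairing by number.

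Of 254 named genes tested between stages, 246 kept direction and call in every alternative that could be run. The median of the cell cycle list turned to 0.17 under quantile normalization and ran from -0.44 to 0.067 when 1 array was left out, above 0 without knockout embryo replicate 1 (0.067) or knockout adult replicate 1 (0.014). The muscle list turned to -0.15 under median scaling and ran from -0.010 to 0.12 when 1 array was left out, below 0 without knockout embryo replicate 1, and the somatic gonad list turned to -0.060 with no filter. With the mean of probes rad-51 turned to -0.37, spe-29 to -1.67 and sqt-3 to 3.55, and sqt-3 turned to 0.35 under quantile normalization. The probes of these 3 genes disagreed. The cause of the other turns was not tested. The normexp correction used the median signal, since the files hold no mean signal. Levels of 1348 genes in adults and 1058 in embryos were limited by background, and slide could not be separated from stage.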
